A study of Mus musculus with 16 samples.

Results

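The genes of Wnt signalling at and around the cell surface were followed through 3 stages of mouse head development. They were chosen by gene symbol from the annotation table of the array: every numbered Wnt, Fzd, Sfrp and Dkk gene, with Frzb, Wif1, Lrp5, Lrp6, Axin2, Lef1, Tcf7l1, Tcf7l2, Rspo1, Rspo2 and Rspo3. The choice of genes used no measured value, but the rule was set with earlier results of these data known. The probe set that stands for each gene was the brightest over these same arrays, so that part of the rule did use measured values. The genes chosen were 48 of the 18193 genes measured, namely 19 ligands, 12 receptors and co-receptors, 10 secreted inhibitors, 3 R-spondins and 4 genes of the nuclear response. Tcf7, which the same choice would include, was not analysed here. RNA of embryo heads was hybridised to 16 single-colour arrays, 6 at embryonic day 9.5 (E9.5), 4 at E11.5 and 6 at E13.5, each array a biological replicate by the submitters' account. The labels give no strain, genotype, sex or treatment for any group, and do not say how much of the head outside the brain was taken. RNA of E9.5 and E11.5 was labelled with the one-cycle kit of Affymetrix and that of E13.5 with an Ambion kit, so stage and labelling kit cannot be told apart in any comparison with E13.5.

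Wnt proteins are secreted, lipid-modified signals that bind Frizzled receptors, and in the canonical branch also the co-receptors Lrp5 and Lrp6, which leads to the stabilisation of beta-catenin and to transcription through the factors of the TCF/LEF family. Sfrp proteins, Frzb and Wif1 bind the ligands outside the cell, Dkk1, Dkk2 and Dkk4 act on the co-receptors, and R-spondins raise the response by keeping Frizzled receptors at the membrane. In the embryonic head the pathway is known for the patterning of the midbrain and hindbrain, the growth of the dorsal forebrain, and the formation of the face and of brain vessels.

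A level below is the deposited probe set intensity on its linear scale, and a difference is on the log2 scale, later minus earlier stage, with its standard error (SE) from limma's fit over all genes. A gene was called where its p, adjusted by Benjamini-Hochberg over all genes, was under 0.05. The median intensity of all probe sets on an array was 32 and the lower quartile 12. 32 of the 48 genes were above that median on all 16 arrays, 6 on some arrays only (Wnt1, Wnt5b, Wnt9b, Wnt11, Sfrp4 and Dkk2) and 10 on none (Wnt2, Wnt2b, Wnt3, Wnt8a, Wnt10a, Wnt10b, Wnt16, Lrp5, Dkk4 and Wif1). Along the first principal component of all genes (65.3% of the variance) the arrays lay in the order of their stages. On the second (21.2%) the 4 E11.5 arrays, at 45.2 to 54.6, lay apart from all others, at -19.8 to -12.9. A level highest or lowest at E11.5 was thus a pattern of many genes of the array, and the part of this component in the Wnt results was not tested. Samples 13 and 15 of E9.5 stood apart from the other 4 arrays of their stage on the third component (3.17% of the variance), and values without both are given for the main results they moved. The poly-A spike-in controls, which do not come from the embryo, differed between stages as well, at 6.94 ± 0.21 (SD over 6 arrays) on the log2 scale at E9.5, 5.12 ± 0.08 (4 arrays) at E11.5 and 4.86 ± 0.09 (6 arrays) at E13.5. The hybridisation controls, added after labelling, were at 10.27 ± 0.58, 11.28 ± 0.25 and 9.75 ± 0.10 in the same order. In two-sided exact permutation tests the adjusted p over these 6 comparisons ran from 0.00649 to 0.0381, and the part of either control in the results was not tested. In whole heads, fewer cells of a type and less RNA per cell cannot be told apart.

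From E9.5 to E11.5, 23 of the 48 genes rose, 10 fell and 15 were not called. Of all genes 57.8% were called in that comparison, 31.0% higher and 26.9% lower, against 68.8% of the Wnt genes. Their median difference was 0.23, and that of all genes 0.02. The choice of probe set moved the number that rose, which was 14 when all probe sets of a gene were averaged and 9 with the second-brightest one. The shares of all genes under these settings are not given here. Whether the Wnt genes rose more often than all genes therefore holds only for the brightest probe set. From E11.5 to E13.5, 12 genes rose, 16 fell and 20 were not called, which is 58.3% called against 54.9% of all genes (27.9% higher and 27.0% lower), with a median of -0.16 against 0.00. Between the outer stages 19 genes were higher at E13.5, 16 lower and 13 not called, 72.9% called against 61.8% of all genes (32.7% higher and 29.1% lower), with medians of 0.07 and 0.01. The first and second comparisons share the E11.5 arrays, and both share arrays with the third. In a moderated F test over the 3 stages, 41 of the 48 genes were called (75.8% of all genes), and the other 7 were Wnt2, Wnt2b, Wnt6, Wnt8a, Lrp5, Lrp6 and Dkk4.

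**Figure D1:**
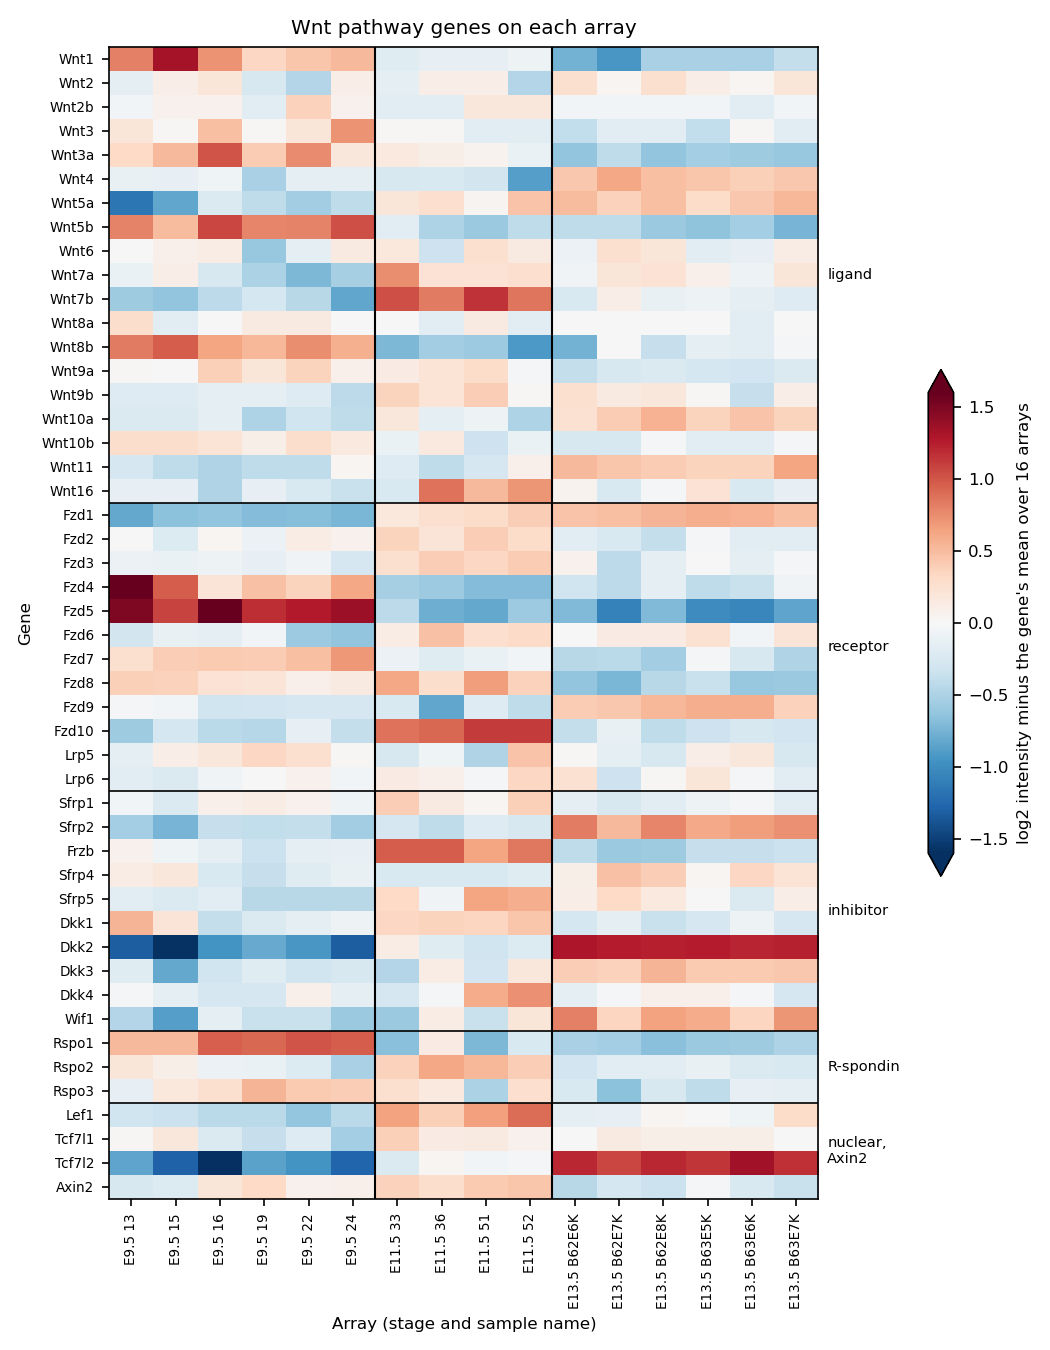
Each row is 1 of the 48 genes and each column 1 of the 16 arrays, and the colour is the log2 intensity minus the mean of that gene over the 16 arrays (the scale is clipped at its ends). Wnt5b, Fzd5 and Rspo1 are red at E9.5, Wnt7b, Fzd10 and Frzb at E11.5, and Dkk2 and Tcf7l2 at E13.5.

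Most of the 48 genes changed by less than 2-fold in each comparison, as the pale rows of the map of genes by array show. Differences of at least 2-fold were called for 4 genes upwards and 5 downwards from E9.5 to E11.5 (10.9% of all genes passed that rule, 6.08% higher and 4.79% lower). In the step to E13.5 they were called for 2 upwards and 4 downwards (9.59%, 5.78% and 3.80%), and between the outer stages for 6 upwards and 5 downwards (17.0%, 9.93% and 7.08%). No overlap between the arrays of both stages was seen in 23, 26 and 24 genes in the same order, against 37.7%, 43.0% and 44.8% of all genes. In all, 18 genes passed the 2-fold rule without overlap in at least 1 comparison: the ligands Wnt1, Wnt3a, Wnt5a, Wnt5b, Wnt7b and Wnt8b, the receptors Fzd1, Fzd4, Fzd5, Fzd8 and Fzd10, the inhibitors Sfrp2, Frzb, Dkk2 and Wif1, the R-spondin Rspo1, and Lef1 and Tcf7l2.

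Among the ligands, 5 rose, 6 fell and 8 were not called from E9.5 to E11.5, and 4 rose, 5 fell and 10 were not called from E11.5 to E13.5. That is 57.9% and 47.4% called, against 57.8% and 54.9% of all genes. Wnt1, the ligand of the midbrain-hindbrain boundary and the dorsal midline, had intensities that ran from 36 to 72 (median 44) at E9.5, were 25, 26, 26 and 27 at E11.5 and ran from 15 to 22 (median 20) at E13.5. All 6 E9.5 arrays were above the E11.5 arrays and all 4 of these above the E13.5 arrays. Wnt1 fell from E9.5 to E11.5 by 0.83 ± 0.15 (adjusted p = 6.34e-05) and was lower at E13.5 than at E9.5, with a difference of -1.29 ± 0.13 (adjusted p = 2.61e-08). The fall from E11.5 to E13.5, -0.46 ± 0.15 (adjusted p = 0.0112), was not called with the E13.5 title prefix as a random block (adjusted p = 0.053). Samples 13 and 15 were at 50 and 72, and without them the first difference was -0.64. The listed markers of the midbrain-hindbrain organizer also fell in the first step: all 9 were lower at E11.5 than at E9.5, En1 by -1.68 and Fgf8 by -1.10. From E11.5 to E13.5, 5 were lower, 1 higher and 3 not called, and between the outer stages 8 were lower and 1 higher. The mean log2 intensity of the list on an array ran from 5.94 to 6.50 at E9.5, from 5.26 to 5.43 at E11.5 and from 4.87 to 5.10 at E13.5. Their part in the Wnt1 result was not tested. Wnt10b, which lies beside Wnt1 on chromosome 15 with no protein-coding gene between them in the RefSeq table, was dim on all arrays and had differences of -0.31 ± 0.09 and -0.06 ± 0.09, of which the first was called.

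Wnt3a, a ligand of the dorsal midline and the cortical hem, had intensities that ran from 83 to 147 (median 101) at E9.5, were 68, 76, 78 and 81 at E11.5 and ran from 47 to 55 (median 48.5) at E13.5. The E9.5 arrays were above the E11.5 arrays by a small margin, and the E13.5 arrays were below all others. Wnt3a fell in both steps, by 0.48 ± 0.12 (adjusted p = 0.00195) and 0.62 ± 0.12 (adjusted p = 0.000217), and was 2.14-fold lower at E13.5 than at E9.5. Its paralog Wnt3 was dim, from 8 to 13 (median 9) at E9.5 and from 6 to 8 (median 7) at E13.5, with differences of -0.35 ± 0.12 (called) and -0.14 ± 0.12 (not called). The call of Wnt3 was lost when either E11.5 array 51 or 52 was left out (adjusted p = 0.058 and 0.059).

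Wnt8b, a ligand of the dorsal forebrain, had intensities that ran from 95 to 129 (median 106) at E9.5, were 35, 40, 44 and 45 at E11.5 and ran from 39 to 66 (median 58.5) at E13.5. All E9.5 arrays were above the rest, while those of E11.5 and E13.5 overlapped. Wnt8b was 2.64-fold lower at E11.5 than at E9.5, with a difference of -1.40 ± 0.13 (adjusted p = 1.37e-08). The next difference, to E13.5, was 0.44 ± 0.13 (adjusted p = 0.00644), which a dimmer probe set gave as -0.69 ± 0.19 (adjusted p = 0.004) and which was not called with the title prefix as a random block (adjusted p = 0.073). The paralog Wnt8a was at or under the lower quartile of intensities on all 16 arrays and was not called in any comparison. Of 10 measured dorsal midline and hem markers, 4 were higher and 2 lower at E11.5 than at E9.5, and 2 were higher and 5 lower at E13.5 than at E11.5. The mean log2 intensity of that list on an array ran from 6.43 to 6.74 at E9.5, from 6.73 to 6.96 at E11.5 and from 6.48 to 6.61 at E13.5, and its part in the Wnt3a and Wnt8b results was not tested.

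Wnt5a and Wnt5b, paralogs best known for signalling without beta-catenin, moved in opposite directions. For Wnt5a the intensities ran from 138 to 261 (median 220.5) at E9.5, were 318, 352, 372 and 423 at E11.5 and ran from 378 to 444 (median 422.5) at E13.5. The E9.5 arrays were below all others, and E11.5 and E13.5 overlapped. Wnt5a rose from E9.5 to E11.5 by 0.84 ± 0.14 (adjusted p = 2.15e-05) and differed by 1.03 ± 0.12 (adjusted p = 2.18e-07) between the outer stages. Samples 13 and 15 were the lowest 2 of E9.5, at 138 and 173, and without them the differences were 0.64 and 0.84. One of its other 3 probe sets was not called from E9.5 to E11.5 (-0.07 ± 0.12, adjusted p = 0.651), and all 3 were higher at E13.5 than at E9.5. The difference from E11.5 to E13.5, 0.19 ± 0.14 (adjusted p = 0.248), was not called, but the mean of the 4 probe sets rose there (0.53, adjusted p = 4.9e-05). Wnt5b intensities ran from 62 to 92 (median 76) at E9.5, were 29, 31, 33 and 39 at E11.5 and ran from 26 to 33 (median 29.5) at E13.5. Every E9.5 array was above every later array, and E11.5 and E13.5 overlapped. Wnt5b was 2.37-fold lower at E11.5 than at E9.5, with a difference of -1.24 ± 0.11 (adjusted p = 7.22e-09), and its other probe set gave -1.19 ± 0.13. The difference from E11.5 to E13.5, -0.14 ± 0.11 (adjusted p = 0.289), was not called. Facial mesenchyme markers stood beside the rise of Wnt5a: 7 of 12 were higher and the other 5 not called at E11.5 than at E9.5, and their mean log2 intensity ran from 6.41 to 6.58 at E9.5, from 7.14 to 7.36 at E11.5 and from 7.60 to 7.67 at E13.5. Their part was not tested.

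Wnt5b and Tcf7l2 were the only 2 of the 15 members of that 2-fold group with a promoter in the RefSeq table whose 250 bases before a transcript start held a core motif of the TCF/LEF factors, and these windows are printed for that reason. The motifs searched, on both strands, were CTTTGAT and CTTTGTT, which differ in 1 letter, so that no stretch of a strand matches both. The Wnt5b window is chr6:119449387-119449636 on the minus strand of GRCm38.p6 and that of Tcf7l2 is chr19:55895071-55895320 on the plus strand. The capitals mark the motif, whose first base lay 71 bases before the start in Wnt5b and 14 in Tcf7l2.
Wnt5b: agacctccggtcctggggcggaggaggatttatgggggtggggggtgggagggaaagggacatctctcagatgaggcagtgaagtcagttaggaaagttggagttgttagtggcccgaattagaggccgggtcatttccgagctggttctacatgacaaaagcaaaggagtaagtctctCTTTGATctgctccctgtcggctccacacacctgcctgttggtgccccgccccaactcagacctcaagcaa
Tcf7l2: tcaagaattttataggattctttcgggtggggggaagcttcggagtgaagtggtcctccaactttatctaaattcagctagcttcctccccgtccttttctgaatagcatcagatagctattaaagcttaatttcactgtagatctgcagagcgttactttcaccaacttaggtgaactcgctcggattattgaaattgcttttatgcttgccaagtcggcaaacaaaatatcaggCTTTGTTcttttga
Of the 32 members with such a window, 2 (6.25%) held CTTTGAT, Wnt5b and Wnt11, against 3.72% of 27025 genes, and 3 (9.38%) held CTTTGTT, Fzd7, Dkk1 and Tcf7l2, against 5.77%. Of these 5 genes, Wnt5b and Fzd7 fell, Tcf7l2 and Dkk1 rose and Wnt11 was not called from E9.5 to E11.5.

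Wnt7b, a ligand of the forebrain that acts on the brain vessels, had intensities that ran from 142 to 209 (median 178.5) at E9.5, were 451, 457, 516 and 565 at E11.5 and ran from 215 to 273 (median 231.5) at E13.5. The E11.5 arrays were above all others, and the E13.5 arrays were above those of E9.5. Wnt7b was 2.82-fold higher at E11.5 than at E9.5, a rise of 1.50 ± 0.10 (adjusted p = 2.16e-10), and fell by 1.08 ± 0.10 (adjusted p = 2.42e-08) to E13.5. A dimmer probe set also rose and fell, by 0.52 ± 0.11 and then -1.23 ± 0.11, but was lower at E13.5 than at E9.5 (-0.70 ± 0.09) where the brighter one was higher (0.42 ± 0.09). Its paralog Wnt7a, which acts with it on vessels, rose from E9.5 to E11.5 by 0.70 ± 0.14 (adjusted p = 0.000207). One of the other 2 probe sets of Wnt7a was called in the opposite direction, and the mean of all 3 was not called (0.19, adjusted p = 0.106). The next difference of Wnt7a, -0.27 ± 0.14 (adjusted p = 0.103), was called only without samples 13 and 15 (adjusted p = 0.043) or with only the E11.5 and E13.5 arrays in the fit (adjusted p = 0.048). Of the endothelial markers, 1 of 12 was higher and 5 lower at E11.5 than at E9.5, and 8 of 12 were higher and 1 lower at E13.5 than at E11.5.

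The remaining ligands changed by less than 2-fold. Wnt4 was not called from E9.5 to E11.5 with all arrays in the fit, was called lower without E9.5 array 19 (-0.29, adjusted p = 0.027), and rose from E11.5 to E13.5 by 0.88 ± 0.11 (adjusted p = 1.6e-06), and its other probe set rose too. Wnt11 and Wnt10a, the latter a ligand of surface epithelia and teeth, rose in that step by 0.65 ± 0.10 and 0.53 ± 0.11. Wnt16 rose by 0.71 ± 0.16 to E11.5 and then had a difference of -0.52 ± 0.16, which was not called with the title prefix as a random block (adjusted p = 0.052). Wnt9a, the neighbour of Wnt3a on chromosome 11, was not called in the first step and fell in the second by 0.44 ± 0.09, while its second-brightest probe set was not called (-0.18). Wnt9b, the neighbour of Wnt3 on the same chromosome, rose in the first step by 0.48 ± 0.11, while its other probe set had a difference of -0.13 that was not called. Wnt2, Wnt2b and Wnt6 were not called in any comparison, though without E9.5 array 16 Wnt2 was called higher at E13.5 than at E9.5 (0.28, adjusted p = 0.049), as it was with array weights (adjusted p = 0.021). The second-brightest probe set of Wnt6 was called lower from E9.5 to E11.5 (-0.46, adjusted p = 0.0058) and between the outer stages (-0.33, adjusted p = 0.019).

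**Figure D2:**
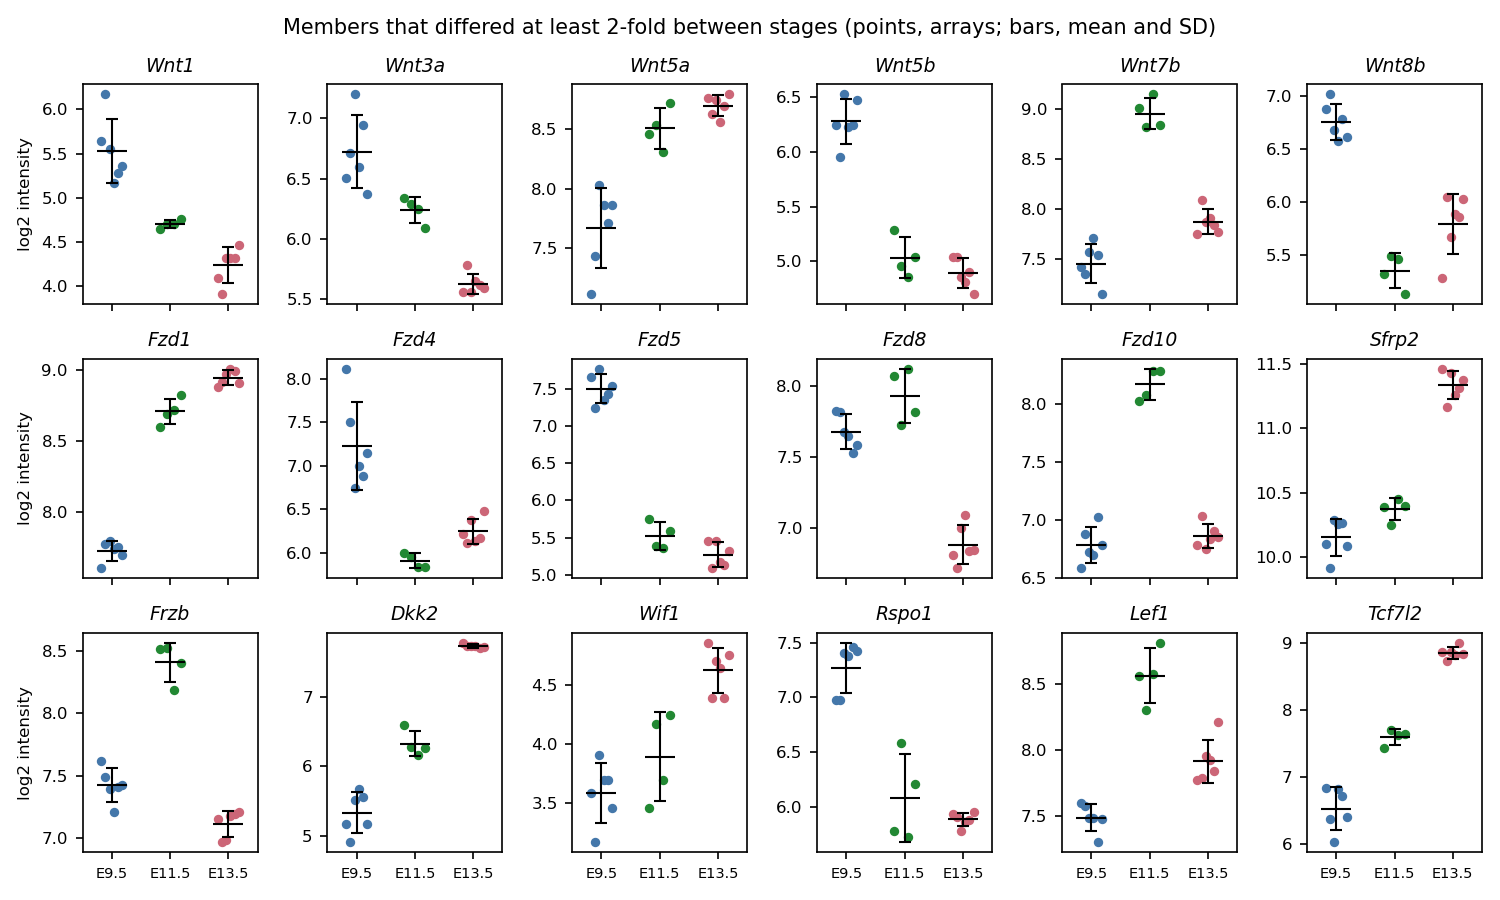
Each panel is 1 of the 18 genes that differed at least 2-fold without overlap in a comparison. Points are arrays (6, 4 and 6), the bars give the mean and SD, and the y axis, which does not start at 0, is log2 intensity. Fzd5 falls from 152 or more on the linear scale at E9.5 to 54 or less afterwards, and Dkk2 and Tcf7l2 climb in both steps without overlap.

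Of the 12 receptors and co-receptors, 6 rose, 3 fell and 3 were not called from E9.5 to E11.5, and 2 rose, 5 fell and 5 were not called from E11.5 to E13.5. That is 75% and 58.3% called, against 57.8% and 54.9% of all genes. Fzd5, a Frizzled receptor of the eye field and ventral forebrain, had the largest fall of the 48 genes, and its intensities ran from 152 to 219 (median 179.5) at E9.5, were 41, 42, 48 and 54 at E11.5 and ran from 34 to 44 (median 38) at E13.5. The E9.5 arrays were far above the later ones, which overlapped with each other. Fzd5 was 3.94-fold lower at E11.5 than at E9.5 (-1.98 ± 0.11, adjusted p = 1.44e-11) and 4.69-fold lower at E13.5 than at E9.5 (-2.23 ± 0.10, adjusted p = 8.76e-14). Its other, dimmer probe set gave only -0.18 ± 0.08 in the first step (adjusted p = 0.0654) and -0.24 ± 0.07 between the outer stages (adjusted p = 0.00697). Fzd8, a related receptor of the forebrain, had intensities that ran from 184 to 226 (median 202) at E9.5, were 211, 225, 268 and 277 at E11.5 and ran from 105 to 136 (median 114.5) at E13.5. The E13.5 arrays were below all others, and E9.5 and E11.5 overlapped. Fzd8 was 2.07-fold lower at E13.5 than at E11.5, with a difference of -1.05 ± 0.10 (adjusted p = 1.48e-08), while its other probe set gave -0.07 ± 0.16 (adjusted p = 0.755). The rise of 0.25 ± 0.10 (adjusted p = 0.0315) before that was not called with the title prefix as a random block (adjusted p = 0.065) or with only the E9.5 and E11.5 arrays in the fit (adjusted p = 0.061), nor without E9.5 array 22 or 24 or E11.5 array 33 or 51 (0.19 to 0.23, adjusted p from 0.058 to 0.12). No array of E9.5 or E11.5 has a prefix, so the block changed the estimated spread in that step and not the difference.

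Fzd4, the receptor of the vascular ligand Norrin, had intensities that ran from 107 to 278 (median 135) at E9.5, were 57, 57, 62 and 64 at E11.5 and ran from 69 to 89 (median 73) at E13.5. Every E9.5 array was above every later array, but E9.5 was also the most spread stage, since sample 13 was at 278 and sample 15 at 181. Fzd4 was 2.51-fold lower at E11.5 than at E9.5 (-1.33 ± 0.18, adjusted p = 3.18e-06), and the difference without samples 13 and 15 was -1.04. Between the outer stages it was -0.99 ± 0.16 (adjusted p = 2.2e-05), or -0.70 without them. The difference from E11.5 to E13.5, 0.34 ± 0.18 (adjusted p = 0.125), was called only without both samples (adjusted p = 0.0041), without sample 13 alone (adjusted p = 0.02) or with only those 2 stages in the fit (adjusted p = 0.0038). Neither of its other 2 probe sets was called in the first step (-0.08 ± 0.09 and -0.03 ± 0.11). Of the endothelial markers, Tek differed by -0.92 and Cdh5 by 0.31 in the same step, and the mean log2 intensity of the list ran from 6.56 to 6.92 at E9.5, from 6.42 to 6.54 at E11.5 and from 6.92 to 7.07 at E13.5. The part of these cells in the Fzd4 result was not tested.

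Fzd10, another Frizzled receptor, had intensities that ran from 96 to 130 (median 108) at E9.5, were 260, 270, 311 and 311 at E11.5 and ran from 108 to 131 (median 115) at E13.5. The E11.5 arrays were above all others, and E9.5 and E13.5 overlapped. It was 2.61-fold higher at E11.5 than at E9.5 (1.38 ± 0.09, adjusted p = 1.07e-10) and 2.47-fold lower at E13.5 than at E11.5 (-1.30 ± 0.09, adjusted p = 2.47e-10), and the outer stages differed by 0.08 ± 0.08 (adjusted p = 0.426). Its other probe set, with a mean log2 intensity of 3.21 at E9.5, had a difference of 0.15 ± 0.13 in the first step that was not called and fell by 0.40 ± 0.13 in the second. Neural progenitor markers moved in both directions: 7 of 12 were higher and 3 lower at E11.5 than at E9.5, and 4 of 12 were higher and 7 lower at E13.5 than at E11.5. Their mean log2 intensity ran from 8.85 to 9.19 at E9.5, from 9.55 to 9.66 at E11.5 and from 9.13 to 9.21 at E13.5, and their part in the results of Fzd5, Fzd8 and Fzd10 was not tested.

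Fzd1 rose in both steps on the probe set used, with intensities that ran from 195 to 223 (median 215) at E9.5, were 389, 414, 422 and 453 at E11.5 and ran from 472 to 516 (median 492.5) at E13.5. The 3 stages did not overlap. The rise was 0.98 ± 0.07 (adjusted p = 3.14e-10) to E11.5 and 0.24 ± 0.07 (adjusted p = 0.00667) to E13.5, but its other probe set rose by 0.57 ± 0.13 and then fell by 0.95 ± 0.13. Only the first step therefore had the same direction on both. Fzd9 was not called in the first step unless E11.5 array 33 or 51 was left out (-0.28 and -0.29, adjusted p = 0.048 and 0.035), and rose in the second by 0.91 ± 0.11 (adjusted p = 4.44e-07), with all 6 E13.5 arrays at 120 or more and all E11.5 arrays at 80 or less. Fzd7 fell in the first step by 0.55 ± 0.10, Fzd6 rose by 0.60 ± 0.11, and Fzd2 and Fzd3 rose by 0.33 ± 0.08 and 0.47 ± 0.09 and fell in the second step by 0.51 ± 0.08 and 0.46 ± 0.09. The second-brightest probe sets of Fzd6 and Fzd7 were not called in the first step (-0.17 and 0.075). Of the other 5 probe sets of Fzd3, 3 were called lower and 1 higher in the first step. The co-receptors Lrp5 and Lrp6 were not called in any comparison on the probe sets used, the largest difference being 0.20 ± 0.11 for Lrp6 and -0.21 ± 0.14 for Lrp5. Without E11.5 array 52, Lrp5 was called lower at E11.5 than at E9.5 (-0.39, adjusted p = 0.012). The other probe set of Lrp6 was called lower from E11.5 to E13.5 (-0.62 ± 0.20, adjusted p = 0.0107) and between the outer stages (-1.03 ± 0.18, adjusted p = 2.96e-05), and so was the mean of both (-0.38 and -0.49).

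**Figure D3:**
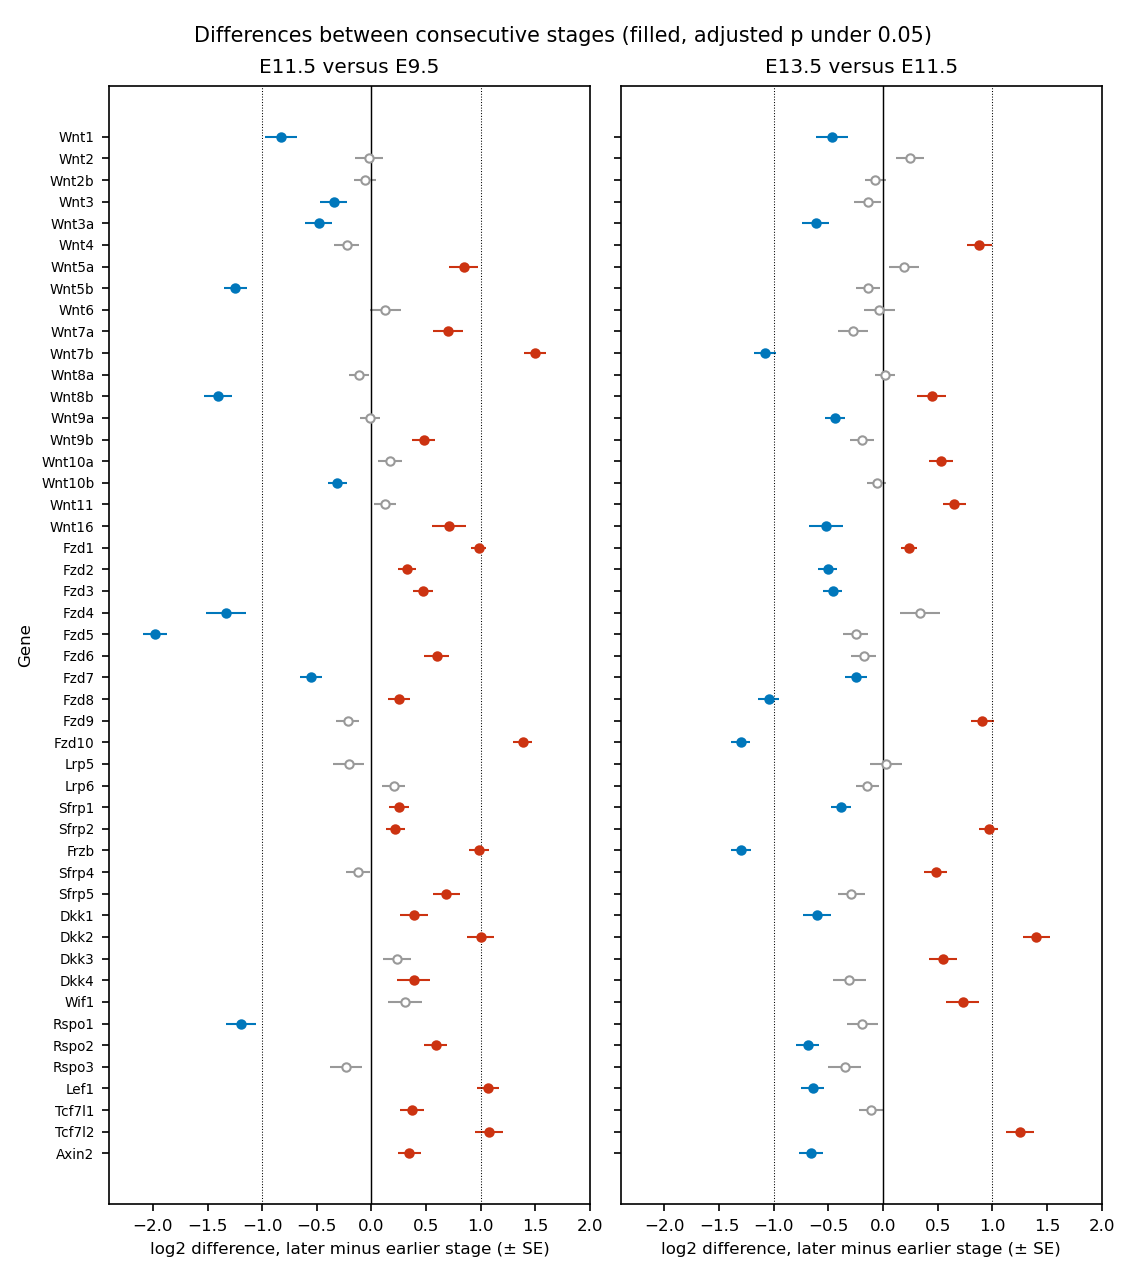
Points are the log2 differences of the 48 genes between consecutive stages, later minus earlier, and the lines their standard errors. Filled points have an adjusted p under 0.05 and dotted lines mark 2-fold. Fzd5 lies farthest to the left in the first panel at -1.98 and Dkk2 farthest to the right in the second at 1.40. Both panels share the E11.5 arrays.

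The plot of differences between consecutive stages sets the roles side by side. Of the 10 inhibitors, 7 rose and the other 3 were not called from E9.5 to E11.5, and 5 rose, 3 fell and 2 were not called from E11.5 to E13.5. Of all genes, 31.0% rose and 26.9% fell in the first step, and 27.9% rose and 27.0% fell in the second. With 10 genes, the counts of the inhibitors are small. Of the 7 that rose, Frzb, Dkk1 and Sfrp1 were called in the opposite direction on another probe set, and the other probe set of Sfrp5 was not called. The calls of Sfrp1, Sfrp2 and Dkk4 were lost when some single arrays were left out. The count of 7 is therefore no measure of a general rise of inhibitors. Dkk2, which binds Lrp co-receptors and can block or raise the signal depending on context, had the largest rise of the 48 genes, and its intensities ran from 30 to 51 (median 41) at E9.5, were 72, 77, 78 and 97 at E11.5 and ran from 209 to 220 (median 212.5) at E13.5. The stages did not overlap, and the 6 E13.5 arrays lay within a narrow range. Dkk2 was just under 2-fold higher at E11.5 than at E9.5 (0.998 ± 0.12, adjusted p = 7.16e-07), 2.64-fold higher at E13.5 than at E11.5 (1.40 ± 0.12, adjusted p = 6.8e-09) and 5.28-fold higher at E13.5 than at E9.5. Samples 13 and 15, at 36 and 30, were among the low E9.5 arrays, and without them the first difference was 0.85. Dkk1, an inhibitor needed for the formation of the head, rose by 0.39 ± 0.13 (adjusted p = 0.0154) and then fell by 0.61 ± 0.13 (adjusted p = 0.000528). Its other probe set had a difference of -0.42 ± 0.13 in the first step, in the opposite direction, and was not called in the second (-0.13 ± 0.13). Without samples 13 and 15 the rise was 0.58. Dkk3, which is not known to bind the co-receptors, was not called in the first step unless E11.5 array 33 was left out (0.35, adjusted p = 0.025). It rose in the second by 0.55 ± 0.13, and its other probe set rose as well. Dkk4, which was dim on all arrays, rose in the first step by 0.39 ± 0.15 (adjusted p = 0.0323), a call that was lost without E9.5 array 16 or 19 or E11.5 array 51 or 52 (0.23 to 0.36, adjusted p from 0.059 to 0.18).

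Sfrp2, a secreted ligand-binding protein, had intensities that ran from 963 to 1250 (median 1161) at E9.5, were 1218, 1339, 1348 and 1398 at E11.5 and ran from 2300 to 2829 (median 2609) at E13.5. All E13.5 arrays were above the rest, and E9.5 and E11.5 overlapped. It was 1.95-fold higher at E13.5 than at E11.5 (0.97 ± 0.09, adjusted p = 1.03e-08) and 2.27-fold higher than at E9.5 (1.19 ± 0.08, adjusted p = 2.97e-11). The rise of 0.22 ± 0.09 (adjusted p = 0.0372) before that was not called without samples 13 and 15 (adjusted p = 0.14) or with the title prefix as a random block (adjusted p = 0.075), nor without any 1 of E9.5 arrays 13, 15 and 24 or E11.5 arrays 33, 51 and 52 (0.17 to 0.21, adjusted p from 0.056 to 0.095). As for Fzd8, the block changed only the estimated spread there, since no E9.5 or E11.5 array has a prefix. Sfrp1, its paralog, had differences of 0.25 ± 0.09 and -0.38 ± 0.09. The first of these was not called without samples 13 and 15 (adjusted p = 0.084) or without E9.5 array 15 or E11.5 array 33 or 52 alone (0.20 to 0.21, adjusted p from 0.051 to 0.089), and 2 of its other 4 probe sets were called in the opposite direction. Sfrp5 rose in the first step by 0.68 ± 0.12, where its second-brightest probe set was not called (0.23), and Sfrp4 in the second by 0.48 ± 0.11.

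Frzb, a ligand-binding inhibitor first known from cartilage, had intensities that ran from 148 to 197 (median 171) at E9.5, were 292, 338, 367 and 369 at E11.5 and ran from 125 to 148 (median 143.5) at E13.5. The E11.5 arrays were above all others, and E9.5 and E13.5 touched at 148. It rose by 0.98 ± 0.09 (adjusted p = 1.42e-08) and then fell by 1.30 ± 0.09 (adjusted p = 2.79e-10). Its other probe set fell in both steps, by 0.67 ± 0.16 and 0.54 ± 0.16, so only the second step had the same direction on both. Wif1 was dim, with intensities that ran from 9 to 15 (median 12.5) at E9.5, were 11, 13, 18 and 19 at E11.5 and ran from 21 to 29 (median 25.5) at E13.5. The E13.5 arrays were above all others, and E9.5 and E11.5 overlapped. Wif1 rose from E11.5 to E13.5 by 0.73 ± 0.15 (adjusted p = 0.0004) and was 2.05-fold higher at E13.5 than at E9.5. Without samples 13 and 15 the difference between the outer stages was 0.93, which is under 2-fold. Markers of cartilage, muscle and connective tissue, which belong to the head outside the brain, also moved in the step to E13.5, in which Dkk2, Sfrp2 and Wif1 rose. There 11 of 12 were higher and 1 lower among the cartilage markers, 11 of 12 were higher and the other 1 not called among the skeletal muscle markers, and 8 of 11 were higher and 3 lower among the connective tissue markers. The mean log2 intensity of the cartilage list ran from 5.74 to 5.98 at E9.5, from 5.80 to 5.95 at E11.5 and from 7.73 to 8.04 at E13.5. That of the skeletal muscle list ran from 4.00 to 4.23 at E9.5, from 3.97 to 4.12 at E11.5 and from 7.60 to 8.06 at E13.5, and that of the connective tissue list from 7.14 to 7.32 at E9.5, from 8.34 to 8.59 at E11.5 and from 9.91 to 10.04 at E13.5. The defining genes Cnmd and Myog differed by 5.44 and 3.41 in this step, and the part of these tissues in the results of the inhibitors was not tested.

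Of the 3 R-spondins, 1 rose and 1 fell from E9.5 to E11.5, and 1 fell from E11.5 to E13.5. That is 66.7% and 33.3% called, against 57.8% and 54.9% of all genes, and with 3 genes these shares say little. Rspo1 intensities ran from 126 to 176 (median 168) at E9.5, were 53, 55, 74 and 96 at E11.5 and ran from 55 to 62 (median 59.5) at E13.5. All E9.5 arrays were above the later ones, which overlapped. Rspo1 was 2.29-fold lower at E11.5 than at E9.5 (-1.19 ± 0.14, adjusted p = 4e-07), and did not pass the test from E11.5 to E13.5 (-0.19 ± 0.14, adjusted p = 0.267). Rspo2 rose by 0.59 ± 0.11 (adjusted p = 8.63e-05) and then fell by 0.69 ± 0.11 (adjusted p = 1.42e-05), with all 4 E11.5 arrays at 152 or more and all others at 134 or less. Its other probe set was called in neither step (0.27 ± 0.12 and -0.01 ± 0.12, adjusted p = 0.0535 and 0.945). Rspo3 was not called in either step on the probe set and fit used, with differences of -0.23 ± 0.15 (adjusted p = 0.194) and -0.35 ± 0.15 (adjusted p = 0.0539). The second was called with array weights, with the trended and robust variance, with the filter on dim genes and with the mean of both probe sets (-0.37 to -0.28, adjusted p from 0.025 to 0.049). It was also called without E11.5 array 51 (-0.54, adjusted p = 0.002), without E9.5 array 13 or E13.5 array B63E6K or B63E7K (-0.39 to -0.35, adjusted p from 0.037 to 0.0497), and without samples 13 and 15. Without these 2 samples the first difference was called as well (-0.36, adjusted p = 0.049), whereas the other probe set was called higher in that step (0.66 ± 0.15, adjusted p = 0.000843). The difference of -0.58 ± 0.13 (adjusted p = 0.000762) between the outer stages was called in the opposite direction by its other probe set.

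All 4 genes of the nuclear response rose from E9.5 to E11.5 on the probe set used (31.0% of all genes rose), and 1 rose, 2 fell and 1 was not called from E11.5 to E13.5 (27.9% of all genes rose and 27.0% fell). In the first step only Tcf7l2 was called higher on every probe set. The other probe set of Lef1 and of Tcf7l1 was called lower, and that of Axin2 was not called. Tcf7l2, the TCF factor of the thalamus and midbrain whose promoter window is printed above, had intensities that ran from 65 to 114 (median 95) at E9.5, were 173, 198, 201 and 209 at E11.5 and ran from 427 to 516 (median 463) at E13.5. The 3 stages did not overlap. Tcf7l2 was 2.11-fold higher at E11.5 than at E9.5 (1.08 ± 0.13, adjusted p = 3.95e-07) and 2.38-fold higher at E13.5 than at E11.5 (1.25 ± 0.13, adjusted p = 5.14e-08), which made it 5.03-fold higher between the outer stages. Of its other 3 probe sets, all were called higher in the first step and 2 in the second, while the third gave 0.03 ± 0.13 there. All 12 pan-neuronal markers were also higher at E11.5 than at E9.5, and 9 of 12 at E13.5 than at E11.5. The mean log2 intensity of that list ran from 6.31 to 7.62 at E9.5, from 9.33 to 9.47 at E11.5 and from 10.31 to 10.39 at E13.5, and its part in the Tcf7l2 result was not tested.

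Lef1, a partner of beta-catenin at target genes, had intensities that ran from 158 to 194 (median 180) at E9.5, were 315, 377, 382 and 449 at E11.5 and ran from 219 to 296 (median 236.5) at E13.5. The stages did not overlap, and E11.5 was the highest. Lef1 rose by 1.07 ± 0.10 (adjusted p = 1.9e-08) and then fell by 0.65 ± 0.10 (adjusted p = 1.68e-05), while its dimmer probe set went the opposite way in both steps, by -0.44 ± 0.11 and 0.31 ± 0.11. Tcf7l1, which mainly represses target genes, rose in the first step by 0.37 ± 0.11 (adjusted p = 0.00777), and its other probe set was called lower (-0.57 ± 0.10). Axin2, a feedback inhibitor that the pathway itself induces, had intensities that ran from 250 to 372 (median 314.5) at E9.5, were 363, 386, 400 and 406 at E11.5 and ran from 220 to 294 (median 241.5) at E13.5. The E11.5 and E13.5 arrays did not overlap, and the E9.5 arrays overlapped with both. Axin2 fell from E11.5 to E13.5 by 0.66 ± 0.11 (adjusted p = 2.56e-05), but its other probe set was not called there (-0.32 ± 0.15, adjusted p = 0.0796). Its rise before that, 0.35 ± 0.11 (adjusted p = 0.00889), was not called without samples 13 and 15 (0.21, adjusted p = 0.052), which at 250 and 258 were low at E9.5. Nor was it called with array weights (0.27, adjusted p = 0.074), on the other probe set (-0.27 ± 0.15) or on the mean of both (0.04, adjusted p = 0.79). The difference between the outer stages, -0.31 ± 0.10 (adjusted p = 0.00763), was not called with the title prefix as a random block (adjusted p = 0.059).

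**Figure D4:**
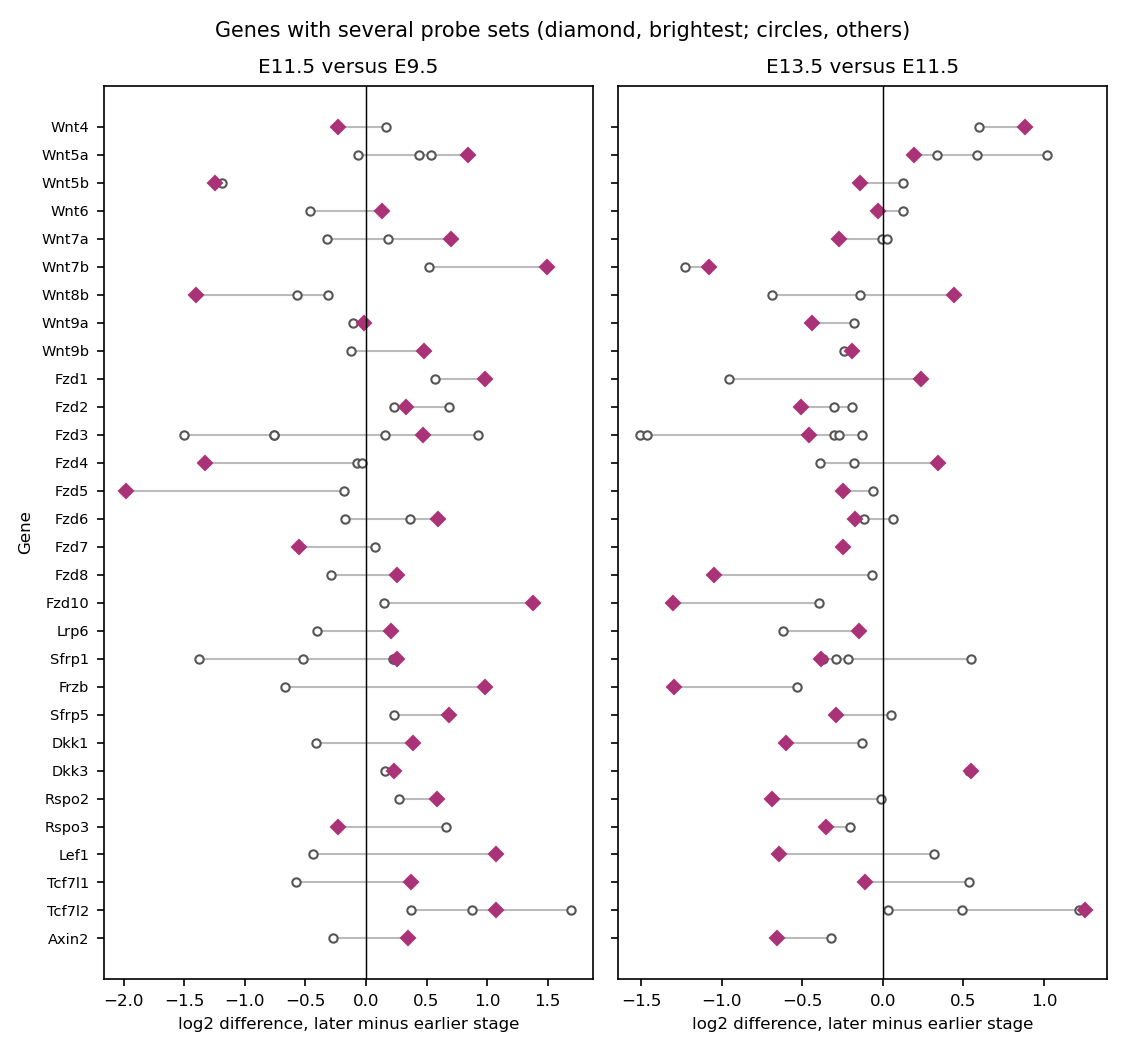
Each row is 1 of the 30 genes with more than 1 probe set. The diamond is the log2 difference of the brightest probe set, which was the one used, and circles are the others, later minus earlier stage. For Wnt5b both symbols nearly coincide in the first panel at -1.24 and -1.19, whereas for Lef1 and Frzb they lie on opposite sides of 0.

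How far the probe sets of a gene moved together is shown in the plot of brightest and other probe sets. Of 24 genes called from E9.5 to E11.5 that had another probe set, the others were called only in the same direction in 8, at least 1 was called in the opposite direction in 7 (Wnt7a, Fzd3, Sfrp1, Frzb, Dkk1, Lef1 and Tcf7l1), and none was called in 9. For the second step these numbers were 8, 4 (Wnt8b, Fzd1, Sfrp1 and Lef1) and 6 of 18 genes. Between the outer stages they were 14, 6 (Wnt7a, Wnt7b, Wnt9b, Fzd1, Fzd2 and Rspo3) and 3 of 23. Of the 18 genes described by array, those with more than 1 probe set and all of them called in the same direction were Wnt5b, Wnt7b, Wnt8b, Fzd1 and Tcf7l2 in the first step, Wnt7b, Fzd10 and Frzb in the second, and Wnt5a, Wnt5b, Wnt8b, Fzd4, Fzd5, Fzd8, Frzb and Tcf7l2 between the outer stages.

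The E13.5 titles carry the prefixes B62 and B63, whose meaning the labels do not give, with 3 arrays each. The 3 arrays of one prefix were apart from the 3 of the other in 2 of the 48 genes, Wnt9b and Frzb. The share of all genes apart in this way was not computed, so that count shows neither a prefix effect nor its absence. The median absolute difference between the prefix means of the 48 genes was 0.058. The largest was 0.27, for Wnt9b. Frzb was lower than at E11.5 with either prefix, with differences of -1.37 for B62 and -1.22 for B63.

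Of 79 other listed genes of the pathway 76 were measured, and 38 of these rose, 16 fell and 22 were not called from E9.5 to E11.5 (31.0% of all genes rose and 26.9% fell). The largest rises were those of Gsk3b, a kinase of the complex that degrades beta-catenin (2.16 ± 0.08), of the planar polarity genes Celsr3 (1.90 ± 0.16) and Vangl2 (1.69 ± 0.08), and of Dvl1, which relays the signal from Frizzled (1.81 ± 0.11). The other 2 probe sets of Vangl2 were not called. Of the other 5 of Gsk3b, 3 were called higher and 1 in the opposite direction, with a median of 0.28. The largest falls were those of the growth regulator Myc (-2.10 ± 0.12), the planar polarity gene Celsr1 (-1.80 ± 0.10), the target gene Sp5 (-1.71 ± 0.12) and the organizer signal Fgf8 (-1.10 ± 0.18). In the second step 23 rose, 36 fell and 17 were not called (27.9% of all genes rose and 27.0% fell). The largest rises were those of Sostdc1, a secreted inhibitor of Bmp and Wnt (1.72 ± 0.13), the R-spondin receptor Lgr5 (1.64 ± 0.17), Myc (1.63 ± 0.12) and the co-repressor Tle2 (1.49 ± 0.12). The largest falls were those of the transcription factor Sp8 (-2.50 ± 0.09), the neurogenic factor Neurog1 (-2.07 ± 0.13), the co-repressor Tle3 (-1.63 ± 0.09) and Znrf3, which removes Frizzled receptors from the membrane (-1.41 ± 0.11). The other probe set of Lgr5, of Neurog1 and of Znrf3 was not called in that step, and 1 of 3 of Tle3 was called in the opposite direction. The medians of the list were 0.27 and -0.18 in the 2 steps, against 0.02 and 0.00 of all genes. Between the outer stages 32 were higher, 21 lower and 23 not called (32.7% of all genes were higher and 29.1% lower), with Celsr3 (2.67 ± 0.15) and Apc2, a relative of the tumour suppressor Apc (2.34 ± 0.10), the highest and Sp8 (-2.65 ± 0.08) and Neurog1 (-2.27 ± 0.11) the lowest. The other 3 probe sets of Apc2 had a median of only 0.29, with 2 of them called higher. For Neurog1 the other probe set was called lower as well, but at -0.35.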

How the data were processed

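The values were deposited as 1 table of 45101 probe sets on 16 arrays. The authors made a linear intensity for each probe set with RMA, per the submitters' processing notes. The deposited intensities are rounded to whole numbers, so values near the lower quartile of 12 come in coarse steps on the log2 scale. Array data have no read depth, and the number of arrays limits the precision. The 64 control probe sets were set aside. The annotation table gave 1 gene for 34945 probe sets, several for 932 and none for 9160, and only the first were used. Each gene was represented by its probe set of highest mean log2 intensity over the 16 arrays. limma 3.58.1 in R 4.3.3 was fitted to log2 intensity of all 18193 genes with 3 stage means, with 13 residual degrees of freedom before moderation and Benjamini-Hochberg adjustment over all genes of a comparison. The fit was tested on simulated data. Control probe sets were compared by two-sided exact permutation tests.

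All member genes could be named. Level by level values are given for those called at 2-fold or more whose arrays did not overlap, and for Axin2, which was chosen after its values were seen. Up to 4 rises and falls of the other pathway genes per comparison, and up to 2 genes of a marker list, are named. The members, lists and tests were chosen with earlier results of these data known. Alternatives were other probe sets or their mean, other normalizations, filters and variance models, array weights, the E13.5 title prefix as a random block (consensus correlation 0.60) and arrays left out. The comparison of protein sequences was not run, and the sources used here do not give the meaning of the title prefixes or the build behind the design of the probe sets. Promoter windows and gene neighbours come from RefSeq (GRCm38.p6).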

Additional observations from a re-analysis of the deposited data

Results flagged for a closer look

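In 11 of the 144 gene and stage groups tested, 1 array stood apart from the others of its stage by Dixon's ratio of gap to range, where chance gives about 1 in 20 groups. The values are log2 intensities. At E9.5, sample 19 was the lowest for Wnt4 (6.17, intensity 72), sample 24 for Wnt9b (4.64, intensity 25) and for Fzd3 (10.11, intensity 1107), and sample 15 for Dkk3 (5.46, intensity 44). At E11.5, sample 52 was the lowest for Wnt4 (5.81, intensity 56) and the highest for Sfrp4 (5.17, intensity 36, with the other 3 arrays at 35), sample 33 was the highest for Wnt7a (6.70, intensity 104) and sample 51 the lowest for Rspo3 (6.81, intensity 112). At E13.5, sample B63E6K was the lowest for Wnt2b (3.46, intensity 11) and Wnt8a (3.00, intensity 8), each 1 unit of intensity under the other 5 arrays, and sample B62E6K was the highest for Dkk2 (7.78, intensity 220).

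Of the 18 genes described in full, only Dkk2 had such an array, and that array lay above all E11.5 arrays, as did the other 5 of E13.5. Rspo3 was not called from E11.5 to E13.5 (adjusted p = 0.054) and was called, among other settings, without sample 51 (-0.54, adjusted p = 0.002). Wnt4 was called lower from E9.5 to E11.5 when sample 19 was left out (-0.29, adjusted p = 0.027).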

How the results depend on the processing

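Of 3852 values recomputed under an alternative, 3676 kept their direction and their side of the threshold, 91 lost a call, 44 gained one and 41 changed direction. That total includes values that could hardly change. Both renormalizations started from normalized values, and only 30 of the 48 genes have another probe set to choose. With the second-brightest probe set, 97 values were the same, 16 lost a call, 3 gained one and 28 changed direction. All changes of direction came from the choice of probe set, and their cause was not tested. When the probe sets of each gene were averaged, the genes called higher from E9.5 to E11.5 went from 23 to 14, those at least 2-fold higher from 4 to 2 and at least 2-fold lower from 5 to 3. From E11.5 to E13.5 the 2-fold counts went from 2 to 1 higher and from 4 to 1 lower. With the second-brightest probe set, 9 were called higher from E9.5 to E11.5, 0 at least 2-fold higher by limma (0 at an unadjusted p under 0.05) and 2 at least 2-fold lower, 2 were at least 2-fold lower from E11.5 to E13.5, and 8 between the outer stages in place of 5. The shares of all genes that pass under these settings are not given here. With probe sets averaged, the differences of opposite sign from E9.5 to E11.5 were Fzd3 -0.25, Fzd8 -0.018, Sfrp1 -0.24, Dkk1 -0.015 and Tcf7l1 -0.10. With probe sets averaged, the differences of opposite sign from E11.5 to E13.5 were Wnt8b -0.13, Fzd1 -0.36 and Tcf7l1 0.21. With probe sets averaged, the differences of opposite sign between the outer stages were Wnt7b -0.14, Wnt9b -0.042, Fzd2 0.082, Fzd3 -0.93 and Lrp6 -0.49. With the second-brightest probe set, the differences of opposite sign from E9.5 to E11.5 were Wnt5a -0.068, Wnt6 -0.46, Wnt9b -0.13, Fzd6 -0.17, Fzd7 0.075, Fzd8 -0.29, Frzb -0.67, Dkk1 -0.42, Rspo3 0.66, Lef1 -0.44, Tcf7l1 -0.57 and Axin2 -0.27. With the second-brightest probe set, the differences of opposite sign from E11.5 to E13.5 were Wnt8b -0.69, Fzd1 -0.95, Lef1 0.31 and Tcf7l1 0.53. With the second-brightest probe set, the differences of opposite sign between the outer stages were Wnt6 -0.33, Wnt7b -0.70, Wnt9b -0.37, Fzd1 -0.38, Fzd2 0.39, Fzd3 -1.35, Fzd6 -0.11, Lrp6 -1.03, Rspo2 0.26, Rspo3 0.46, Lef1 -0.13 and Tcf7l1 -0.042. No paired analysis was possible because no replicate numbers are shared between the stages. Quantile normalization and median centring changed no call of a member. The deposited RMA values were already normalized between arrays, so these 2 settings could hardly change a call and do not test the results. The title prefix as a random block ended 10 calls, Fzd8 and Sfrp2 from E9.5 to E11.5, Wnt1, Wnt8b, Wnt16 and Fzd7 from E11.5 to E13.5, and Wnt9b, Fzd2, Tcf7l1 and Axin2 between the outer stages. Only E13.5 arrays carry a prefix, so the calls of Fzd8 and Sfrp2 ended through the estimated spread alone. Array weights ended 7. Leaving out single arrays ended between 0 and 5 calls each, reversed none and moved no count of calls by over 1.5 times. Calls that at least 1 such omission ended were Wnt3, Fzd8, Sfrp1, Sfrp2 and Dkk4 from E9.5 to E11.5, Fzd7 from E11.5 to E13.5, and Fzd2 and Tcf7l1 between the outer stages, and calls that at least 1 gained were Wnt4, Wnt10a, Fzd9, Lrp5, Dkk3 and Wif1 from E9.5 to E11.5, Fzd4, Fzd5, Sfrp5, Dkk4 and Rspo3 from E11.5 to E13.5, and Wnt2 and Dkk1 between the outer stages. Leaving out E9.5 samples 13 and 15 together ended the calls of Sfrp1, Sfrp2 and Axin2 from E9.5 to E11.5, and gained those of Rspo3 from E9.5 to E11.5, Wnt7a, Fzd4 and Rspo3 from E11.5 to E13.5, and Sfrp1 between the outer stages. Values of dim genes such as Wnt3, Wnt16, Dkk4 and Wif1 rest on intensities under the median of all probe sets. Members left without a measured probe set by the filter on dim genes, or by leaving out probe sets with the suffixes _s, _x and _a, gave no value there.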

Other observations

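Marker lists not set beside a result above moved as follows. Microglial markers, led by Csf1r (2.92 from E9.5 to E11.5), were higher in 9 of 10 genes at E11.5 than at E9.5, and 7 of 10 were higher at E13.5 than at E11.5. Of 7 measured choroid plexus markers, 3 were higher and 3 lower at E11.5 than at E9.5, and 5 higher and 1 lower at E13.5 than at E11.5, with Ttr, the thyroid hormone carrier of that tissue, higher by 4.22 and then by 2.40. Erythroid markers were higher in 4 and lower in 2 of 9 genes in the first step and fell in 8 of 9 genes from E11.5 to E13.5, the embryonic globin Hbb-bh1 by 4.35. Of 12 surface ectoderm markers, 2 were higher and 5 lower in the first step, and 10 higher and 2 lower in the second, with Krt14, a keratin of the basal epidermis, higher by 3.44. The part of these cells in the Wnt results was not tested.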
